A study of Drosophila melanogaster with 3 samples.

Results

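The 10 genes described here encode the core cell cycle engine of Drosophila melanogaster: the kinases Cdk1, Cdk2 and Cdk4, the cyclins CycA, CycB, CycB3, CycD and CycE, the phosphatase stg (string) and the inhibitor dap (dacapo). They were taken by name, not by any measured value, though with earlier results of these data known. They make up 10 of 13945 protein-coding genes and 18164 genes of all kinds on the 6 main chromosomes and arms in the Ensembl annotation. The data are peak lists from chromatin immunoprecipitation with sequencing (ChIP-seq) of CG1529, a predicted zinc finger protein. All 3 libraries, biological replicates 1 to 3, came from whole mixed-sex embryos aged 0 to 14 h of a single transgenic line that expresses CG1529 with GFP joined to its C terminus. They form 1 group, with no second group beside it. One label of each library names CG1529 as the antibody target while another calls the library an input control. Per the file listings, each library's peaks were called against a separate control that all 3 had in common, and on that ground they are read as ChIP libraries.

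The cyclin-dependent kinases Cdk1, Cdk2 and Cdk4 work only when bound to a cyclin. In flies, CycD with Cdk4 acts in growth and G1, CycE with Cdk2 starts S phase, and CycA, CycB and CycB3 with Cdk1 drive mitosis. The Cdc25 phosphatase made by stg removes an inhibitory phosphate from Cdk1, and its zygotic transcription times the divisions after the blastoderm stage. The p27-like inhibitor made by dap blocks CycE/Cdk2 when embryonic cells stop dividing.

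Peaks of CG1529-GFP were present at 5 of the 10 genes and were mostly not at their own promoters. The joint list that the authors kept after a test of reproducibility between libraries, called the optimal list here, holds 3905 distinct peaks ranked by the authors' signal value. It had 10 peaks with a summit in a member gene or within 5 kb of it: 3 at Cdk4, 2 each at Cdk1, CycB and CycE, and 1 at dap. Cdk2, CycA, CycB3, CycD and stg had 0. The share of members with such a peak was 5 of 10, and that of all protein-coding genes was 38.4%. A summit within 500 bp of a transcription start site (TSS) was found for 2 of 10, Cdk1 and dap, against 13.3% of protein-coding genes. When each optimal summit counted only for the gene of its nearest TSS, dap alone was left, 1 of 10 against 9.96%. With 10 genes, shares this near to the background are no result about these genes as a set, and no test was made. The mean number of optimal peaks per gene and flanks was 1.00 for the members and 0.639 for protein-coding genes, whose median length was 2166 bp against 3682 bp for the members.

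**Figure D1:**
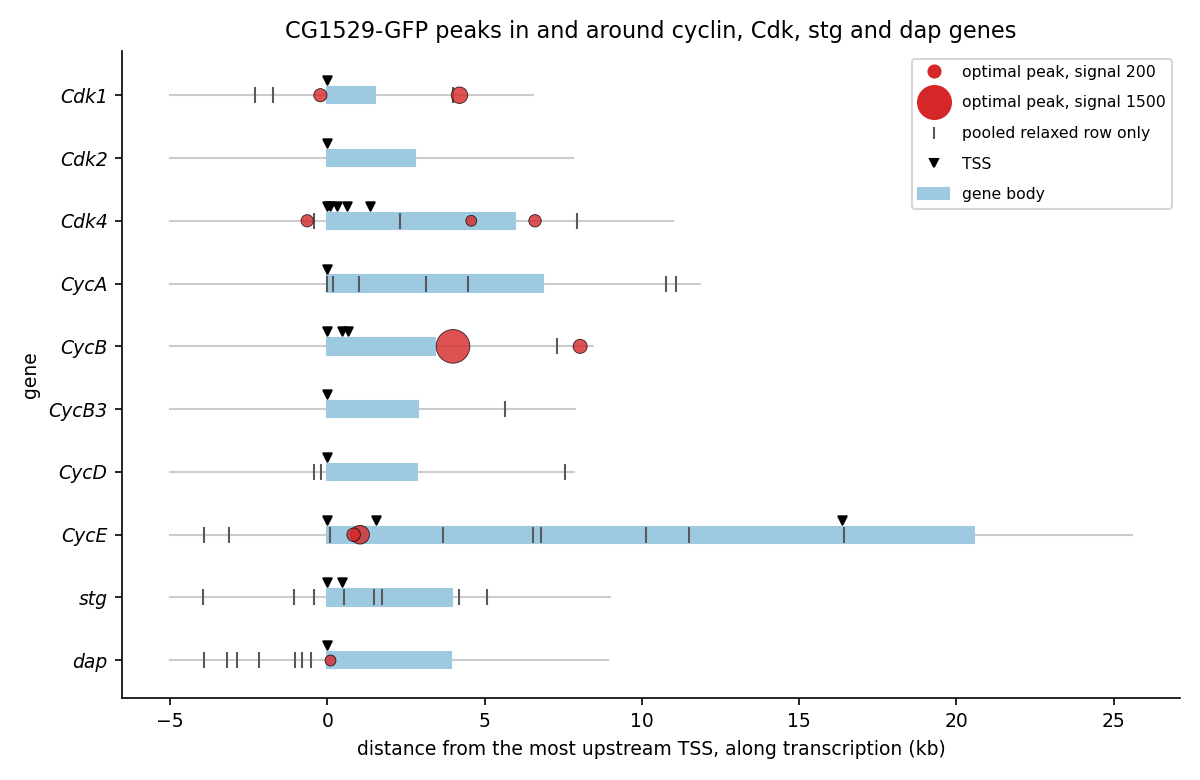
Positions of CG1529-GFP summits along each gene and 5 kb to either side, in kb from the most upstream TSS in the direction of transcription; red circles are optimal peaks with area in proportion to signal, grey ticks are rows found only in the relaxed pooled list, black triangles are TSSs and blue bars are gene bodies. The largest circle, signal 1563, lies past the 3′ end of CycB, and Cdk2 has neither circles nor ticks.

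Cdk1, the mitotic kinase gene on the minus strand of chr2L:10384739-10386262, shared a promoter peak with its neighbour. Its TSS lies 400 bp from that of mRpS7, a mitochondrial ribosomal protein gene on the opposite strand, and the peak at chr2L:10386268-10386703 covered the space between them. The pooled summit was 224 bp upstream of the Cdk1 TSS and 176 bp upstream of the mRpS7 TSS, so the neighbour was nearer. Its signal was 241 and its rank 2141 in the optimal list. In the libraries the overlapping row ranked 1573, 1883 and 3433 in replicates 1, 2 and 3, with signals of 99.2, 74.9 and 71.9. All 3 ranks lay within the first 3921, the number of rows in the optimal list, and replicate 3 had the weakest. Library summits were 16 to 125 bp from the pooled summit. They lay 181, 240 and 99 bp from the Cdk1 TSS in replicates 1, 2 and 3. Which of the TSSs was nearer thus varied between libraries. The sequence around the summit (chr2L:10386436-10386536, dm6, plus strand) is shown because it carries the only homeodomain core, TAATTA, found at a member summit. Capitals mark runs of 8 or more A or T, and the core lies inside the first of them, from 1 bp before to 4 bp after the summit.
Cdk1 and mRpS7 promoter summit: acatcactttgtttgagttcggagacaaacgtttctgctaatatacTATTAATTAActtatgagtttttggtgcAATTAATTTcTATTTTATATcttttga

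A second peak in the Cdk1 flank was stronger but lay near the TSS of another gene. It lay at chr2L:10381845-10382280, 2676 bp past the 3′ end of Cdk1, with signal 375 and rank 1033. Its summit was 200 bp upstream of the TSS of CG5096 and inside the 3′ UTR of gny. Library ranks were 1124, 1143 and 1231, close to each other and all among the strongest 3921. A weaker pooled row outside the optimal list (signal 112, rank 6253) lay 103 bp from a TSS of da, which encodes a bHLH transcription factor, 1740 bp from the Cdk1 TSS.

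Cdk2, the S phase partner of CycE at chr3R:20735623-20738414, was the only member with no row in the pooled list. The relaxed pooled list, which holds 30000 rows of peaks and background, had 0 rows in the gene or its flanks, whereas 78.7% of protein-coding genes and the 9 other members had at least 1. Replicates 1 and 3 had 0 rows there. Replicate 2 had 3, of which the strongest near the TSS ranked 13462 (signal 23.8), 124 bp away. The nearest optimal summit was 21015 bp from the Cdk2 TSS, at Oamb, and 31.3% of protein-coding genes were as far from one or farther.

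Cdk4, the G1 kinase gene (plus strand of chr2R:16579470-16585448), had more optimal peaks than any other member, all of modest signal. The first, at chr2R:16578608-16579043 with signal 209 and rank 2602, was intergenic, 644 bp upstream of the first of 5 Cdk4 TSSs. Its library ranks were 2211, 2535 and 5308, with signals of 79.2, 63.6 and 54.5, so replicates 1 and 2 placed it among their strongest 3921 rows and replicate 3 did not. The second, at chr2R:16583824-16584259, lay in a Cdk4 intron 3209 bp downstream of the nearest Cdk4 TSS and 673 bp upstream of that of the antisense gene asRNA:CR44375, which was nearer. It had signal 163 and rank 3698, and its library ranks of 8698, 4732 and 2109 ran the other way, with replicate 3 the strongest. The third, at chr2R:16585852-16586287 with signal 213 and rank 2544, was 622 bp past the 3′ end of Cdk4. It lay 59 bp upstream of the TSS of RpLP2, a gene of the ribosomal stalk, and ranked 3775, 5116 and 1182 in the libraries.

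A further row at Cdk4, which overlapped the upstream optimal peak, fell just under the optimal list. Its summit was 421 bp upstream of the TSS, inside the 500 bp limit, with signal 147 and rank 4279 in the pooled list. The lowest signal in the optimal list was 157. Library rows within 500 bp of a Cdk4 TSS ranked 7436, 3261 and 7442, so only replicate 2 had one among its strongest 3921.

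CycB, a mitotic cyclin gene on the minus strand of chr2R:22803521-22806948, had the strongest peak of the 10 genes, at its 3′ side. The peak at chr2R:22802759-22803142 had signal 1563 and rank 36 of 3905. The overlapping rows of replicates 1, 2 and 3 ranked 36, 34 and 40, with signals of 596, 393 and 570. The libraries thus placed it almost alike, and their summits were within 21 bp of the pooled summit. The summit was intergenic, 565 bp past the 3′ end of CycB and 776 bp past that of blw, which encodes the alpha subunit of mitochondrial ATP synthase and runs towards CycB from the other side. No TSS was near: the closest, 3347 bp away, was an internal TSS of CycB. The other peak in the CycB flank, at chr2R:22798696-22799131 with signal 274 and rank 1735, was 185 bp upstream of the blw TSS and 4607 bp past the end of CycB, just inside the 5 kb limit. It ranked 1353, 3877 and 1809 in the libraries. At the 3 CycB TSSs themselves there was no row in the pooled list or in replicates 1 and 3, and 1 in replicate 2 at rank 24715 (signal 15.8).

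**Figure D2:**
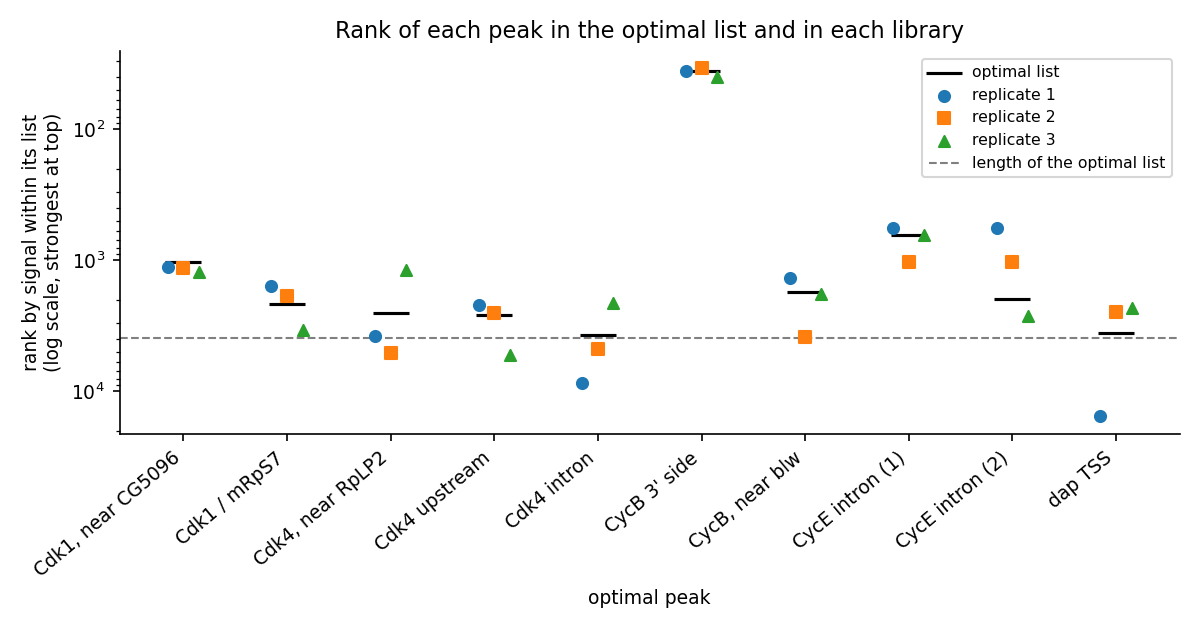
Rank by signal (log scale, strongest at the top) of the 10 optimal peaks at these genes in the optimal list (black bars) and of the strongest overlapping row in each library (coloured points); the dashed line is the length of the optimal list, 3921 rows. The CycB 3′ peak ranks 36, 34 and 40 in the libraries, while the dap peak ranks 15556 in replicate 1 and 2460 and 2314 in the others.

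CycA, the cyclin needed for entry into mitosis (minus strand of chr3L:11826719-11833578), had no optimal peak in the gene or its flanks, and 1 library had a promoter row among its strongest 3921. The strongest pooled row within 500 bp of its TSS lay at chr3L:11833169-11833604, 191 bp downstream of the TSS in the 5′ UTR, with signal 76.2 and rank 10939. Replicate 1 had no row at this TSS, replicate 2 had one at rank 8613 (signal 31.3) and replicate 3 one at rank 3890 (signal 66.2), inside its strongest 3921. The strongest row in the flanks (signal 102, rank 7130) was 34 bp from the TSS of the ribosomal protein gene RpL10Ab. The nearest optimal summit was 136971 bp from the CycA TSS, at Dph1, and 1.84% of protein-coding genes were as far or farther, a comparison chosen after the values were seen.

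CycB3, a B-type cyclin gene on the minus strand of chr3R:24867934-24870816, had no pooled row at its TSS and 1 in its flanks (signal 62.8, rank 14589), which was 187 bp from a TSS of Elal. Replicate 1 had a row at the CycB3 TSS at rank 21022 and replicate 2 one at rank 6641, and replicate 3 had none. The nearest optimal summit was 5890 bp from its TSS, with signal 321, and lay 52 bp from a TSS of CG3744. It fell just outside the 5 kb flank.

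CycD, the Cdk4 partner (minus strand of chrX:15906822-15909676), had a promoter row that the libraries did not share. The pooled row at chrX:15909668-15910103 had its summit 210 bp upstream of the TSS, with signal 99.7 and rank 7384. Replicate 1 had it at rank 3375 with signal 57.0, among its strongest 3921 rows. Replicate 3 had it at rank 16450 with signal 26.9, and replicate 2 had no row. The 2 libraries that listed it placed the summit within 5 bp of the pooled one. The nearest optimal summit was 38719 bp away.

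CycE, the cyclin that is limiting for S phase (minus strand of chr2L:15727581-15748150), had a pair of adjoining peaks in an intron between alternative promoters. Its 3 TSSs spread along the gene, and both peaks lay between the first and the second. The stronger, at chr2L:15746924-15747137, had signal 485 and rank 637, with its summit 503 bp upstream of the second TSS, just outside the promoter limit. Replicates 1, 2 and 3 had overlapping rows at ranks 562, 1020 and 645, with signals of 182, 103 and 193. All 3 libraries held it among their strongest rows. The weaker, at chr2L:15747159-15747347, had signal 254 and rank 1956. Its nearest TSS, 684 bp away, was that of the antisense gene asRNA:CR44866, and the nearest CycE TSS was 707 bp away. In replicates 1 and 2 the strongest row over it was the same row that covered the stronger peak, and replicate 3 resolved it as a row of its own at rank 2643, with its summit 8 bp from the pooled one. At 214 and 189 bp these peaks were narrower than the median optimal peak of 436 bp. The gene lncRNA:CR44974, on the opposite strand, ends 113 bp from the stronger summit.

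The summits of this CycE pair differed in base composition, and their sequences are shown for that reason (dm6, plus strand, capitals mark runs of 8 or more A or T). The first window, chr2L:15747063-15747163, holds runs of 25, 24 and 13 A or T bases, the first pair longer than any at the other member summits, and the second, chr2L:15747267-15747367, holds none.
CycE stronger summit: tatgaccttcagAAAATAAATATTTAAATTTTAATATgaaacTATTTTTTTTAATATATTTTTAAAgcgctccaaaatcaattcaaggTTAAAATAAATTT
CycE weaker summit: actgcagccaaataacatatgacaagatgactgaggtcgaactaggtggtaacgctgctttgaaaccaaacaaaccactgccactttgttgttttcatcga

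The remaining rows at CycE were weak. The upstream-most TSS had a pooled row at rank 10634 (signal 77.5), 81 bp away and nearer to the antisense gene asRNA:CR44866, and the internal TSS had one at rank 18171 (signal 54.1). In the 5′ flank a row of signal 147 and rank 4254, just under the optimal list, was 199 bp from the TSS of ND-B17, a gene of respiratory complex I.

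The string gene stg (minus strand of chr3R:29251826-29255800) had a promoter row in all 3 libraries that stayed below the optimal list. Its summit, at chr3R:29255040-29255475, was 67 bp from the nearer of 2 stg TSSs, in the 5′ UTR, with signal 124 and rank 5411 in the pooled list. Rows near a stg TSS ranked 5252, 3486 and 6581 in replicates 1, 2 and 3, with signals of 41.2, 53.2 and 47.8, so only replicate 2 had one among its strongest 3921. A stronger row (signal 146, rank 4299) lay at chr3R:29251413-29251848, just past the 3′ end of stg. It was absent from replicate 1 and ranked 8026 and 3209 in replicates 2 and 3. The nearest optimal summit was 18957 bp from a stg TSS, with signal 403.

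The inhibitor gene dap (plus strand of chr2R:9712321-9716256) was the only member with an optimal peak whose nearest TSS, within 500 bp, was its own. The peak at chr2R:9712197-9712632 had its summit 94 bp downstream of the TSS, in the 5′ UTR, with signal 166 and rank 3584, near the end of the list. Library signals were 23.1, 64.6 and 92.7 in replicates 1, 2 and 3. The ranks were 15556, 2460 and 2314, so replicates 2 and 3 held it among their strongest rows and replicate 1 only deep in its list, at a −log10 q-value of 0.244.

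**Figure D3:**
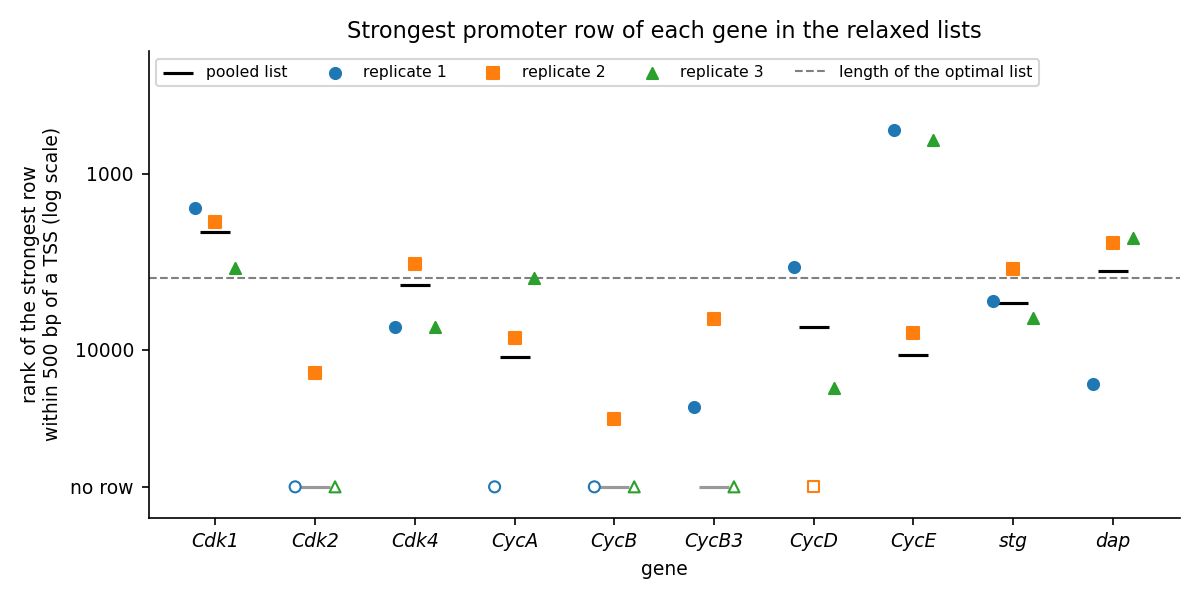
Rank (log scale, strongest at the top) of the strongest row with a summit within 500 bp of a TSS of each gene, in the relaxed pooled list (black bars) and in replicates 1 to 3 (coloured points); grey bars and open symbols at the bottom mark lists with no such row, and the dashed line is at rank 3921. Cdk1 is the only gene with all 3 libraries above the line. For CycE the rows are at the second TSS in replicates 1 and 3 and at the upstream-most TSS in replicate 2 and the pooled list.

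By library, the members with a strong promoter row overlapped in part. Among the strongest 3921 rows, replicate 1 had one at Cdk1, CycD and CycE, replicate 2 at Cdk1, Cdk4, dap and stg, and replicate 3 at Cdk1, CycA, CycE and dap. Cdk1 was the only member in all 3, while CycE and dap were each in 2 and CycA, CycD, Cdk4 and stg each in 1. The counts were 3, 4 and 4 of 10, a mean of 3.67 ± 0.577 (SD, n = 3), against 12.5%, 14.2% and 13.7% of protein-coding genes. Library rows at CycE counted because their summits, 477 and 495 bp from the second TSS in replicates 1 and 3, fell inside the limit that the pooled summit at 503 bp missed. In the whole relaxed lists, rows within 500 bp of a TSS were present in each of the 3 libraries for 5 of 10 members (Cdk1, Cdk4, CycE, stg and dap) against 22.6%, and in the pooled list for 7 of 10 against 40.9%. For CycE the strongest such rows were not at the same TSS. That of replicate 2 (rank 7977) lay 92 bp from the upstream-most TSS, and those of replicates 1 and 3 lay near the second. The relaxed lists include background.

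The 10 optimal peaks were spread over the list. Their signals ran from 163 to 1563 with a median of 248, beside 255 for all optimal peaks. All 10 overlapped a row in each library's relaxed list, as 95.0% of all optimal peaks did, and 6 of 10 overlapped one of the strongest 3921 rows in each library, as 64.4% did. The optimal list was made from these libraries, so such overlap is built in. Of the 10, 5 were within 500 bp of some TSS, against 41.7% of all optimal peaks, but 3 of these lay at the promoters of neighbours only (CG5096, RpLP2 and blw). A further 3 were in introns of CycE and Cdk4 and 2 were intergenic, upstream of Cdk4 and past the end of CycB. By the optimal summits, a neighbour's TSS was nearer than the member's own for 6 of 10. For the peak between Cdk1 and mRpS7 this varied between libraries. Below the optimal list the pooled list held another 42 rows in these genes and flanks, with signals from 39.4 to 147, of which 14 overlapped a row in all 3 libraries. The strongest library rows were in some cases shared with an overlapping optimal peak, as at Cdk1, or between pooled rows, as at CycA and dap. The 14 are therefore not all separate sites, and the share over all pooled rows is not given here.

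The summits at these genes had less G and C than their flanks on average, by unequal amounts. Within 50 bp of the summit the G+C content averaged 33.3% over the 10 peaks and 41.9% in windows 300 bp to either side, a difference of -8.61 percentage points. For all optimal peaks the difference was -10.2 points (33.8% against 44.0%). In the library rows at these peaks it was -9.00 ± 1.33 points (SD, n = 3). The summit was below its flanks at 8 of 10 peaks, against 78.5% of all optimal peaks. The lowest was the stronger CycE summit, with 16.8% against 49.0% in its flanks, a difference of -32.2 points, while that of dap was -0.495 points (38.6% against 39.1%). The other summits ranged from 23.8% to 42.6%. The CycB 3′ summit had 28.7% against 46.5%. The exceptions were both at Cdk4, where the upstream summit had 40.6% against 34.2% and the intron summit 41.6% against 33.7%.

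**Figure D4:**
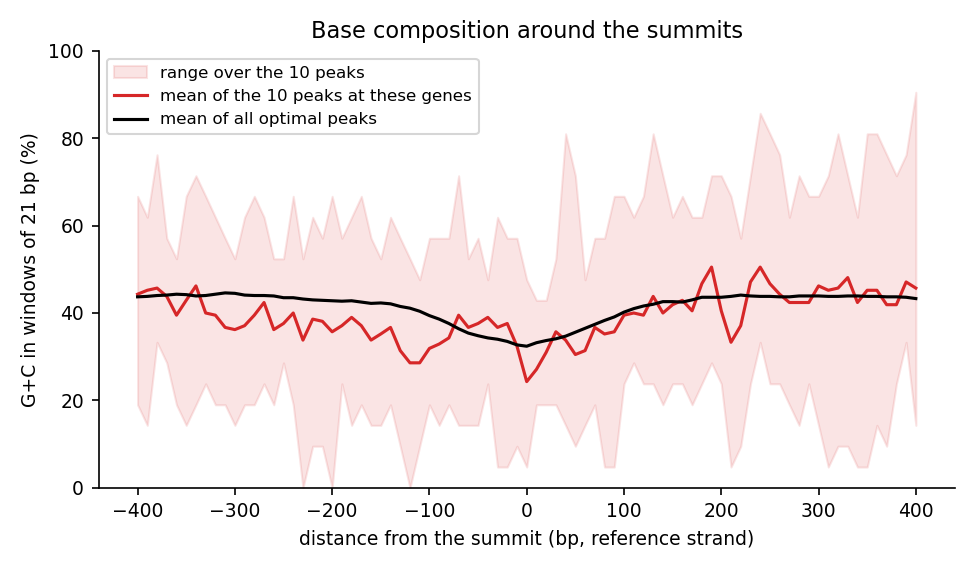
G+C content in windows of 21 bp against distance from the summit, for the 10 optimal peaks at these genes (red line, mean; shading, lowest to highest peak) and for all 3905 optimal peaks (black line, mean). Both means dip at the summit; within 50 bp they are 33.3% and 33.8%.

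Motifs of known factors were counted at these summits, at all optimal summits and in the windows 300 bp away from them. Within 50 bp, on both strands, the DRE core TATCGATA was at 0 of 10 summits and 0.768% of all optimal summits (0.410% of the windows 300 bp away), the Zelda heptamer CAGGTAG at 0 and 0.410% (0.499% of those windows), and the E2F core TTTNNCGC, with any base at N, at 0 and 5.04% (7.75% of those windows). The GAGA pentamer GAGAG was at 1 of 10, the Cdk4 intron, and 10.1% of all (16.5% of the windows 300 bp away). The homeodomain core TAATTA was at 1 of 10, the Cdk1 promoter, and 9.94% of all (5.26% of those windows), and it overlaps runs of A and T. Such runs of 8 or more bases were at 8 of 10 summits and 74.9% of all, against 47.7% of the windows 300 bp away. The CycB 3′ summit and the weaker CycE summit had none. A match is a run of letters only, and its absence here covers only these windows.

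A few other genes of the pathway also had promoter peaks. Among other cyclins and cyclin-dependent kinases, 3 of 16 (18.8%) had an optimal summit within 500 bp of a TSS, beside 13.3% of protein-coding genes. These were Cdk12, an RNA polymerase II kinase gene (signal 319, 225 bp from its TSS but 194 bp from that of SAK), Eip63E, which encodes the kinase partner of CycY (signal 280, 445 bp), and CycT, a P-TEFb subunit gene (signal 162, 212 bp), whose peak had no row in replicate 1. Among 24 genes listed as cell cycle regulators of Cdks, which include mitotic kinase and spindle checkpoint genes, 3 (12.5%) had one. They were mts, the catalytic subunit gene of phosphatase PP2A (signal 292, 406 bp from its TSS but 2 bp from that of Rack1), tws, a regulatory subunit gene of PP2A (signal 190, 109 bp), and fzr, an activator of the anaphase-promoting complex (signal 157, 370 bp, rank 3892). With the gene body and 5 kb flanks the shares were 10 of 16 (62.5%) and 13 of 24 (54.2%), beside 38.4% of protein-coding genes. A longer gene gives a longer window, and gene lengths in these lists were not compared. No test was made, and these shares are no result about the pathway.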

How the data were processed

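The deposited files are 5 peak lists on dm6, per the file headers and listings: a relaxed list of 30000 rows for each of 3 libraries and for the pooled libraries, and the optimal list of 3921 rows that passed the irreproducible discovery rate (IDR), which scores how alike peaks rank between replicates. The sources used here name no aligner, peak caller, IDR threshold or read depth. The −log10 q-value and the signal of each peak are the authors' values, as deposited; the scaling to the control is unknown here, so signal ranks and describes peaks within 1 list. Chromatin was sheared to 200 to 800 bp, per the labels.

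Repeated intervals were counted once, and rows were ranked by signal. The summit is the peak start plus the deposited offset. Genes and TSSs came from Ensembl release 115 without transposable elements. All peaks ended within the RefSeq chromosomes, and the ends of 10 of 10 members were the same in RefSeq, which gave the sequences. A library row supported a peak if they overlapped by at least 1 bp. Window counting was checked on positions placed at known distances. Python 3.11.15 was used.

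All members are named, with the nearest-TSS gene of each optimal peak and up to 4 genes of each of 2 pathway lists (25 and 16 names, of which 24 and 16 matched). Members, lists and motifs were chosen with earlier results of these data known. No test was made, since there is 1 group. No sequence is printed for Cdk4, CycB and dap or where a window touched a UTR.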

Additional observations from a re-analysis of the deposited data

How the results depend on the processing

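The number of members with a promoter summit, 2 of 10, was 2 within 250 bp and 4 within 1000 bp of a TSS. It was 0 in the stronger 1952 optimal peaks, 1 among peaks that overlap the strongest 3921 rows of all 3 libraries, and 1 for the nearest TSS only. The number of members with a peak in the gene or its 5 kb flanks, 5, was 3 in gene bodies alone, 5 with 2 kb, 6 with 10 kb and 3 in the stronger 1952 peaks. Their peaks, 10 in number, were 4 in gene bodies, 8 with 2 kb, 14 with 10 kb and 4 among the stronger 1952. Support by all 3 libraries, 10 of 10 peaks, was 8 with an overlap of 50% of each peak and 6 with the strongest 3921 rows. The mean count of members with a promoter row per library, 3.67, was 1.33 with 1960 rows and 5.33 with 7842, and 3.50 to 4 when each replicate was left out in turn. The G+C difference of -8.61 points was -10.8 with windows of 25 bp to each side and -7.59 with 100 bp. The cause of these changes was not tested. Shares of all protein-coding genes at these changed settings are not given here, except for the nearest TSS only (9.96%). A wider window or a longer list can raise such counts for any set of genes. The changed counts are therefore no result about the members. Lists of 10 genes and 10 peaks are small, read depth is unknown, and no control library was used here, so a gene with no listed peak is not shown to lack CG1529.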
